A study of Rattus norvegicus with 8 samples.

Results

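The intact old heart was described from 2 expression arrays, sham replicate 1 and sham replicate 2, of 8 arrays in all. Both came from hearts of female Norway Brown rats of 18 to 22 months that had sham surgery, in which the body cavity was opened and closed with the ovaries left in place. The arrays were chosen by their titles, before any expression value was considered. Each array held RNA mixed in equal amounts from 3 hearts. Neither whether a heart entered both mixtures nor which part of the heart was taken is given in these sources. The other 6 arrays held hearts of rats with ovariectomy, alone, with estradiol from the time of surgery, or with estradiol started later. Those arrays entered the normalization, the choice of probe set and a check of the replicate number, and their groups were not compared with the sham hearts.

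The heart muscle cell works through repeated cycles of calcium release and uptake. Calcium leaves the sarcoplasmic reticulum, binds troponin on the thin filament, lets myosin of the thick filament pull on actin, and is then pumped back. Mitochondria, which fill much of the cell, supply the ATP for this, mainly by oxidising fatty acids. Around the muscle cells lie endothelial cells, fibroblasts, smooth muscle cells, pericytes and resident macrophages. A whole-heart extract mixes the RNA of all of them, so that fewer cells of a type and less RNA per cell cannot be told apart.

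Signals were read for 31042 probe sets, and 14217 genes were represented by a probe set with a single gene symbol. All values below are log2 signals after quantile normalization unless a percentile or a share is named. Pairs of values are given in the order replicate 1, replicate 2. Because normalization gave both arrays the same set of values, a probe set with the same rank among all probe sets on both arrays had the same value on both. The mean signal of the 2 arrays ran from 0.02 to 13.22 over the genes, with the median gene at 5.51, the 90th percentile at 8.52 and the 99th at 11.48. A probe set's signal depends on its probes as well as on its transcript, so a rank orders signals and not transcript numbers. Of 4525 genes with more than 1 probe set, 2477 had probe sets more than 2 log2 units apart. With 2 pools and no second condition, nothing was tested.

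As a gauge of background, 77 marker genes of liver, brain and retina, pancreas, gut and kidney, testis and pituitary, and lung were read on the same arrays. Their median signal was 2.68, at percentile 14.9 of all genes, and 90% of them lay at or below 4.17, which is called the other-organ level below. Of all genes, 9184 (64.6%) lay above that level on both arrays. None of the 77 was among the highest 10% of genes. The liver gene Ttr, a carrier of thyroid hormone and retinol-binding protein, was the brightest of them, at 7.19 and 7.61.

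The highest signals belonged to genes of the contractile apparatus and of mitochondrial energy production. Of the 40 genes with the highest mean signal, 20 were on the mitochondrial lists, 12 on the contractile lists and 4 on the translation lists, while COX1 and COX2, the 2 highest, were on none. The list of mitochondrial genes is broad and includes cytosolic partners such as Mb, the oxygen-binding protein myoglobin, and Fabp3, the fatty acid binding protein of heart. Among the 100 highest genes, 54 were mitochondrial, 20 contractile and 10 translational, while these classes made up 1.53%, 0.478% and 0.429% of all genes measured. Of the 100, 7 were in no list, against 94.5% of all genes. The lists were chosen with earlier results of these data known, so these counts depend in part on that choice and are descriptions only. The contractile count was 11 when a gene was represented by the mean over its probe sets instead of its brightest one. The 100 highest genes together held 19.8% of the summed linear signal of all genes on replicate 1 and 19.9% on replicate 2.

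**Figure D1:**
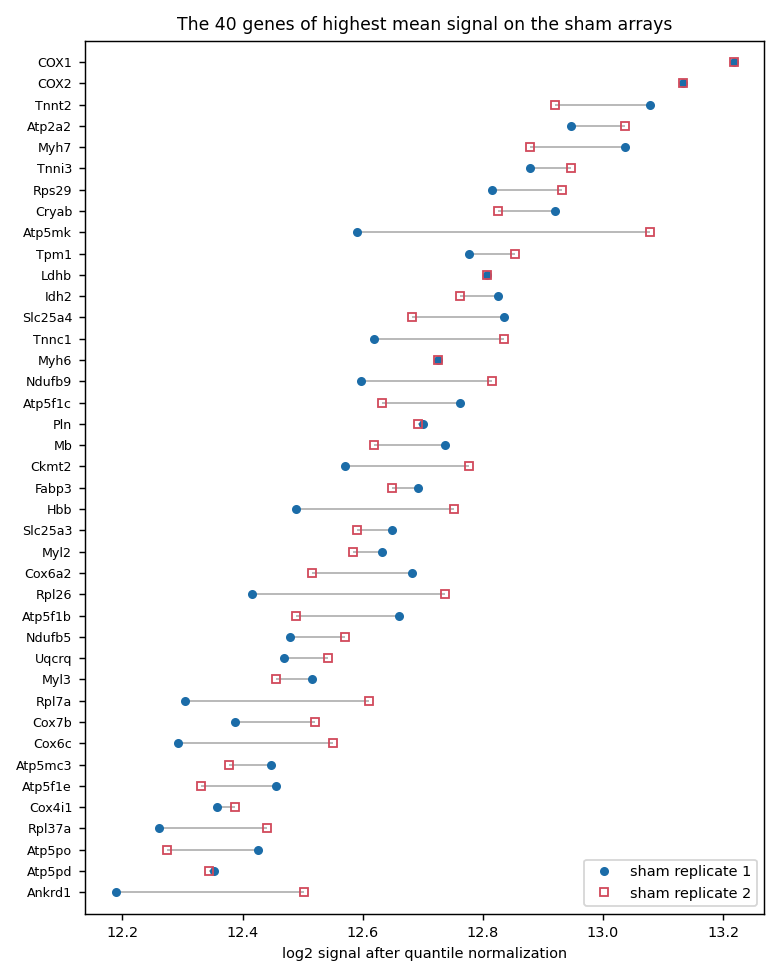
The 40 genes of highest mean signal, from rank 1 at the top. The horizontal axis is the log2 signal after quantile normalization, filled circles are sham replicate 1 and open squares sham replicate 2. COX1 leads at 13.22 on both arrays and Ankrd1 is the lowest by mean, at 12.19 and 12.50.

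The first ranks went to a pair of genes of the mitochondrial genome. COX1, a catalytic subunit of cytochrome oxidase, gave 13.22 on both arrays, and COX2, the subunit that receives electrons from cytochrome c, gave 13.13 on both. Next came Tnnt2, cardiac troponin T, at 13.08 and 12.92. Atp2a2, which encodes SERCA2, the pump that returns calcium to its store, followed at 12.95 and 13.04. Myh7, the slow beta myosin heavy chain, gave 13.04 and 12.88. Tnni3, cardiac troponin I, gave 12.88 and 12.95. COX1 and COX2 kept the first places on both arrays, and the other 4 exchanged places between the arrays.

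Further muscle genes among the 10 highest were Cryab, a small heat shock protein that protects desmin and titin, at 12.92 and 12.83, and Tpm1, the tropomyosin that covers the myosin sites on actin, at 12.78 and 12.85. The remaining places were held by Rps29, a protein of the small ribosomal subunit, at 12.82 and 12.93, and by Atp5mk, a small subunit of ATP synthase, at 12.59 and 13.08. Atp5mk took rank 24 on replicate 1 and rank 3 on replicate 2, and 7 genes in all were among the 10 highest on both arrays. Hbb, the beta chain of hemoglobin and a marker of red cells, stood at rank 22 with 12.49 and 12.75. Whether blood was washed from the hearts is not given here.

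Of the 68 contractile genes measured, 51 were among the highest 10% of all genes and the median percentile was 97.7. All 7 measured thin filament genes were in that top 10%. The calcium-binding troponin C, Tnnc1, gave 12.62 and 12.83, and the lowest of the 7, the filament-capping Tmod1, gave 10.60 and 10.65. Acta1, the skeletal form of alpha-actin that rat heart also makes, gave 11.33 and 11.26. Actc1, cardiac alpha-actin, was not used here, because no probe set carried its symbol alone.

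Of 12 thick filament genes 9 were among the highest 10%. Myl2 and Myl3, the regulatory and essential light chains of ventricular myosin, gave 12.63 and 12.58, and 12.52 and 12.46. Ttn, the giant spring protein titin, gave 11.99 and 12.11. At the other end, Mybphl, a relative of myosin-binding protein C known from atria, gave 0.08 and 2.41, below the other-organ level on both arrays.

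At the Z disc, which anchors the thin filaments, 16 of 19 genes were among the highest 10%. After Cryab came Ankrd1, a stretch-responsive ankyrin repeat protein, at 12.19 and 12.50, and Myoz2, a calsarcin that binds calcineurin, at 12.23 and 12.41. Csrp3, the muscle LIM protein, gave 12.14 and 12.18, and Tcap, the titin cap, gave 11.84 and 12.05. Dmd, which encodes dystrophin, was the lowest at 1.13 and 1.22. Its value came from 1 probe set, so that whether a different stretch of the transcript would be bright was not tested.

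The calcium cycle was represented at each step. Ryr2, the calcium release channel, gave 11.86 and 11.67, and Casq2, the calcium store protein, gave 11.48 and 11.64. Pln, phospholamban, the inhibitor of the pump, stood close to Atp2a2 itself at 12.70 and 12.69. Hrc, a histidine-rich calcium-binding protein of the same store, gave 11.52 and 11.39. Fkbp1b, which binds the release channel, was the lowest of the 18 calcium genes measured at 3.24 and 0.98. The probe sets of Atp2a2 spread widely: the 4 not used for ranking gave 9.52 and 9.68, 8.32 and 8.29, 5.62 and 5.02, and 4.29 and 4.23.

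Intercalated discs join the cells end to end. Gja1, the main ventricular gap junction protein connexin 43, gave 11.73 and 11.85, and Dsp, the desmosomal desmoplakin, gave 11.81 and 11.69. The catenins that couple cadherin to actin followed, Ctnna1 at 10.90 and 10.96 and Ctnnb1 at 11.09 and 10.54. Gjc1, connexin 45 of the conduction tissue, was the lowest of the 12 at 5.86 and 6.22, which was still above the other-organ level on both arrays.

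Mitochondrial genes were as high as contractile ones by median percentile, at 97.6 over 218 genes, and 177 of them were in the highest 10%. Their summed linear signal was 17.6% of that of all genes on replicate 1 and 17.3% on replicate 2, against 6.30% and 6.24% for the contractile genes. These sums grow with the number of genes, 218 against 68. The contractile sum lacks Actc1, and the mitochondrial sum lacks COX1 and COX2 and includes cytosolic partners such as Mb. The sums therefore do not compare the classes gene by gene. Complex I, which takes electrons from NADH, had 33 of 35 genes in the highest 10%, led by Ndufb9 at 12.60 and 12.82 and Ndufb5 at 12.48 and 12.57. The exception at the bottom was Ndufa4l2, known as a hypoxia-induced relative of an oxidase subunit, at 5.85 and 5.21. The list of complexes II to V with cytochrome c had 40 of 44, with the ATP synthase subunits Atp5f1c at 12.76 and 12.63 and Atp5f1b at 12.66 and 12.49 near its top. Its lowest gene was Cox6b2, the testis form of an oxidase subunit, at 1.45 and 1.09.

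Fuel pathways that feed these complexes were bright throughout, with each gene above the other-organ level on both arrays. All 23 genes of the citric acid cycle and pyruvate oxidation were in the highest 10%, from Idh2, the mitochondrial NADP-linked isocitrate dehydrogenase, at 12.83 and 12.76 down to Pdhx, a structural part of pyruvate dehydrogenase, at 8.99 and 9.21. For fatty acids, 26 of 28 genes were there. Fabp3 gave 12.69 and 12.65. The acyl-CoA dehydrogenases of medium and long chains, Acadm and Acadl, gave 12.28 and 12.13, and 12.25 and 12.03. Lpl, the lipase that frees fatty acids from blood lipoproteins, gave 12.11 and 12.06.

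Energy carriers showed the same level. Slc25a4, the ADP/ATP carrier of heart and muscle, gave 12.83 and 12.68, and Slc25a3, the phosphate carrier, gave 12.65 and 12.59. Ckmt2, the mitochondrial creatine kinase of striated muscle, gave 12.57 and 12.78, and Mb gave 12.74 and 12.62. The mitochondrial ribosome was set lower: 44 of its 73 genes were in the highest 10%, none was among the 100 highest, and its brightest gene, Mrpl54, gave 10.30 and 10.14. Even so, all 73 were above the other-organ level on both arrays. Ppargc1a, the coactivator PGC-1 alpha of mitochondrial genes, gave 8.16 and 8.25.

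Outside mitochondria, glycolysis and translation were prominent. Of 23 genes of glycolysis and glycogen use, 17 were in the highest 10%, led by Ldhb, the lactate dehydrogenase chain typical of heart, at 12.81 on both arrays and Aldoa, aldolase A, at 12.58 and 12.10. The cytosolic ribosome had 39 of 47 genes in that top 10%, with Rpl26 at 12.42 and 12.74 after Rps29. Of the 47, 43 were above the other-organ level on both arrays, and Rpl30, a protein of the large ribosomal subunit, was the lowest at 1.55 and 3.54. Translation factors were headed by Eef1a1, which delivers aminoacyl-tRNA to the ribosome, at 10.87 and 11.47.

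Genes for stress protection and senescence were unequal. Hspb6, a small heat shock protein of muscle, gave 12.33 and 12.04, and Gpx1, a glutathione peroxidase that removes peroxides, gave 12.13 and 11.97. Sod1, the cytosolic superoxide dismutase, gave 11.68 and 11.45. Cdkn2a, which encodes the senescence marker p16, gave 1.59 and 1.12, below the other-organ level. Of the 27 genes measured, 17 were in the highest 10%.

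**Figure D2:**
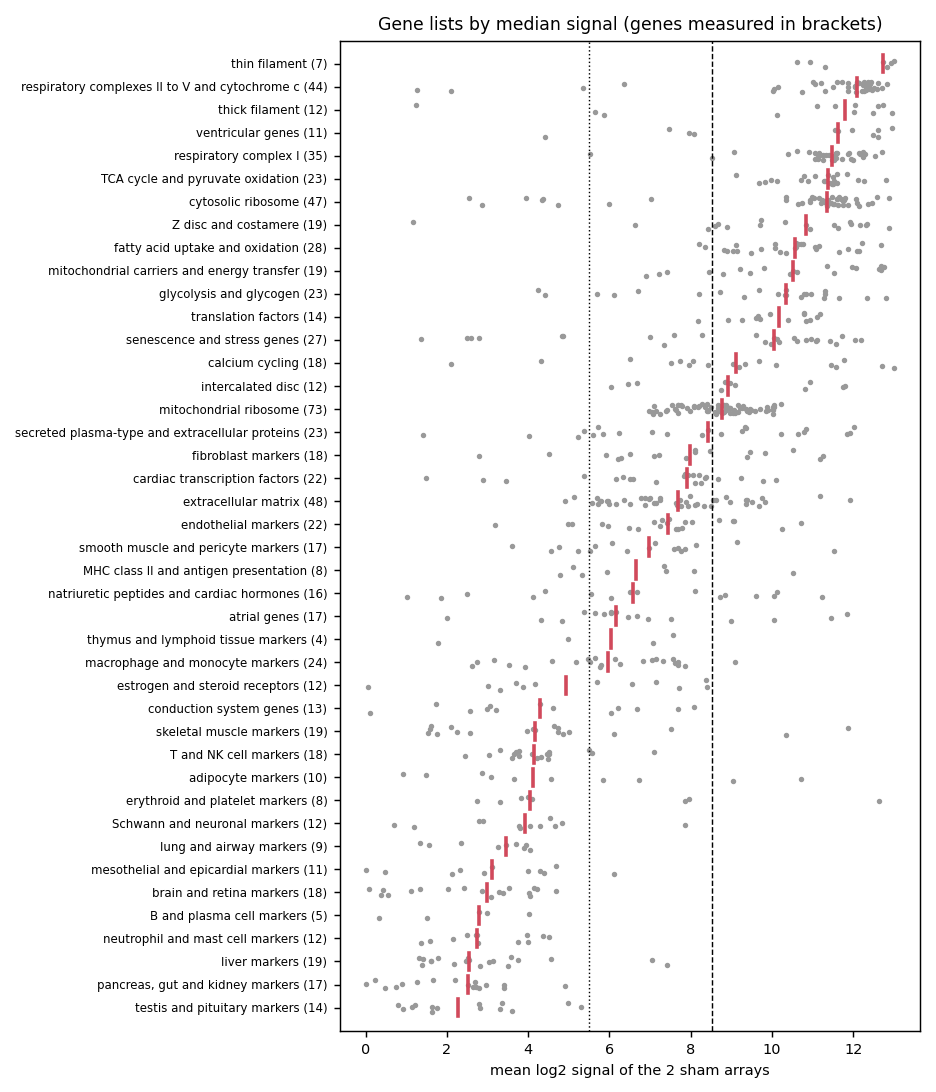
Mean log2 signal of the 2 sham arrays for each gene of 42 lists, ordered by list median. Each grey point is a gene, the red bar is the list median, the dotted line is the median gene at 5.51 and the dashed line the 90th percentile at 8.52. Thin filament genes have the highest median, 12.73, and testis and pituitary markers the lowest, 2.28.

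Secreted proteins covered a wide range. Of the 39 measured, 17 were in the highest 10% and the median percentile was 87.0. B2m, the light chain of class I histocompatibility molecules, which is also shed, gave 12.08 and 11.94. Mgp, the matrix Gla protein that inhibits calcification, gave 12.02 and 11.83, and the chaperone Clu, clusterin, gave 12.01 and 11.68. Selenop, the selenium transport protein, gave 10.56 and 10.99. A2m, a protease inhibitor of plasma known to be made in rat liver, was the lowest of the plasma-type proteins at 1.54 and 1.28.

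Cardiac hormones and growth factors were unequal in signal. Nppb, B-type natriuretic peptide, gave 10.98 and 11.45. Nppa, the atrial natriuretic peptide, gave 8.85 and 11.23, a difference of 2.38 log2 units between the arrays. On this list 4 of 16 genes were more than 2-fold apart between the arrays, a share near the 22.1% (3144) of all 14217 genes. Fgf1, an acidic fibroblast growth factor, gave 10.29 and 9.93, and Vegfa, the growth factor of vessels, gave 9.73 and 9.49. Nppc, the C-type peptide known from endothelium and brain, gave 1.26 and 0.80.

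Stromal genes lay below the muscle and mitochondrial genes and above the median gene. Their 130 measured members had a median percentile of 71.9, and 24 were in the highest 10%. All 48 extracellular matrix genes were above the other-organ level on both arrays. After Mgp, the brightest was Dcn, the collagen-binding proteoglycan decorin, at 11.19 and 11.16. Col3a1, the chain of type III collagen, gave 9.91 and 9.74. Timp3, an inhibitor of matrix proteases, gave 9.64 and 9.86. Eln, elastin, was the lowest of the list at 4.94 and 4.86.

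Markers of the non-muscle cell types were present in different degrees. Fibroblast markers had a median percentile of 85.8, endothelial markers 79.8, and smooth muscle and pericyte markers 73.8. Vwf and Kdr, the endothelial clotting factor and VEGF receptor, gave 8.89 and 8.52, and 8.94 and 9.13. Myh11, the smooth muscle myosin, gave 8.25 and 7.46. Des, desmin, headed the smooth muscle list at 11.54 and 11.52, and Fabp4, the fatty acid binding protein of adipocytes and capillaries, headed the endothelial list at 10.55 and 10.88. Both are also made elsewhere, desmin in heart muscle itself, so that they mark no single cell type.

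Markers of fat, mesothelium and nerve were mostly dim. Adipocyte markers had a median percentile of 30.4, although 2 of 10 were in the highest 10%, Fabp4 and the lipase Pnpla2, at 9.13 and 8.95, which other cells make as well. Cidec, a lipid droplet protein of fat cells, gave 1.15 and 0.69. Mesothelial and epicardial markers were at 18.8, with Wt1, the epicardial transcription factor, highest at 5.93 and 6.29. Among Schwann and neuronal markers Npy, the cotransmitter of sympathetic nerves, gave 7.40 and 8.30, while Chgb, a protein of secretory granules, gave 0.86 and 0.54.

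Immune genes were mostly dim. Of 67 measured, 2 were in the highest 10%, none was among the 100 highest, and the median percentile was 35.2. Those 2 were Cd74, the invariant chain of class II molecules, at 10.44 and 10.57, and Lyz2, a lysozyme of macrophages, at 9.11 and 9.04. All 8 genes of class II antigen presentation were above the other-organ level on both arrays, as were 18 of 24 macrophage markers. Of all genes 64.6% were, so the macrophage count was not far from that of genes in general. Pf4, a chemokine that is also on the platelet list, gave 7.68 and 8.02, Lyve1, a hyaluronan receptor of resident macrophages and lymphatics, gave 7.78 and 7.59, and C1qa, a complement chain, gave 7.48 and 7.76.

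Lymphocyte markers were dim, at a median signal of 4.14 for T and NK cells and 2.80 for B and plasma cells. The markers of the background gauge had a median of 2.68. Of 18 T and NK cell markers, 6 were above the other-organ level on both arrays, headed by the chemokine Ccl5 at 7.44 and 6.74 and the kinase Lck at 5.48 and 5.68. None of 5 B and plasma cell markers was, with Mzb1, a chaperone of antibody-secreting cells, highest at 3.97 and 4.05. Of 12 neutrophil and mast cell markers 1 was, S100a9, a calcium-binding protein of neutrophils, at 4.70 and 4.30. Aif1, a macrophage protein, gave 0.05 and 5.17 by its ranking probe set and 5.39 and 4.73 by its other one.

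The tissue label was read against markers of the heart's chambers and of skeletal muscle. Ventricular genes had a median percentile of 99.2, with Myl2 at 12.63 and 12.58, as given above. That list includes Cox6a2 and Ckm, which skeletal muscle also makes, and its lowest gene, Irx5, gave 4.93 and 3.91. Atrial genes had a median percentile of 61.0, and 4 of 17 were in the highest 10%. The atrial light chains lay far below Myl2, with Myl7 at 6.49 and 4.81 and Myl4 at 5.74 and 5.99. Sln, sarcolipin, the atrial inhibitor of the calcium pump, gave 3.97 and 4.65. The 4 bright genes on the atrial list were Clu, Pam, Nppa and Dkk3. Pam, the enzyme that amidates peptides, gave 11.47 and 11.44, but Pam and Clu are not restricted to atria. Nppa gave 8.85 and 11.23, and Dkk3 gave 9.04 and 8.92. Conduction tissue genes had a median percentile of 32.4, and Irx3, a factor of the fast conduction fibres, was highest at 8.01 and 8.13.

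Cardiac transcription factors were moderate in signal. The median percentile was 84.9 and 4 of 22 were in the highest 10%. Hopx, a homeodomain protein without DNA binding, gave 10.01 and 10.18, and Tead1, the partner of YAP in growth control, gave 10.01 and 9.56. Mef2a, a MADS-box factor of muscle genes, gave 9.21 and 9.27. Ppara, the fatty acid sensor that drives oxidation genes, gave 2.02 and 0.96 on its probe set.

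Skeletal muscle markers were dim as a list, at a median percentile of 31.0. The brightest were Casq1, the skeletal calsequestrin, at 7.97 and 7.06, Eno3, the muscle enolase that heart also makes, at 10.43 and 10.27, and Myh1, the fast IIx myosin heavy chain, at 11.77 and 11.95. Myh1 had 5 probe sets. Its dimmest gave 7.32 and 7.25, and the other 4 ran from 10.11 to 11.95. Other fast fibre genes did not share this level: Myh2 gave 4.51 and 3.75, Myh4 gave 0.00 and 4.22, and Tnni2, fast troponin I, gave 4.78 and 4.66. Myosin heavy chain genes are similar in sequence, and whether the Myh1 probes also bind transcripts of Myh6 or Myh7 was not tested.

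Steroid and related receptors were of low signal, with a median percentile of 42.0 over 12 genes. Esr1, estrogen receptor alpha, gave 0.06 and 0.04, at the floor of the scale, from 1 probe set. Esr2, estrogen receptor beta, gave 3.96 and 3.42, below the other-organ level on both arrays. Gper1, the membrane receptor for estrogens, gave 5.10 and 3.24, and Pgr, the progesterone receptor, gave 2.30 and 3.74. At such signals the arrays cannot show whether these receptors are made at a low level or not at all. Higher in the list stood the retinoid receptor Rxrg at 8.64 and 8.15, the thyroid hormone receptor Thrb at 8.30 and 8.45, and the glucocorticoid receptor Nr3c1 at 7.52 and 7.92.

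Many heart proteins come as isoforms from separate genes, and the brighter gene was recorded in each of 75 families with at least 2 measured members. The same member was highest on both arrays in 67 of them. In 48 the highest member lay more than 2-fold above the next on both arrays, and in 72 it lay above the other-organ level on both. The exceptions at that level were the beta adrenergic, angiotensin and estrogen receptors, in which no choice can be read. Since the members are read by different probes, the gaps below are gaps between signals.

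The cardiac member led wherever a troponin was compared. Tnni3 at 12.88 and 12.95 stood 8.08 and 8.28 above the slow skeletal Tnni1, at 4.80 and 4.67. Tnnt2, at 13.08 and 12.92, exceeded the fast skeletal Tnnt3, at 4.65 and 3.69. Tnnc1, at 12.62 and 12.83, exceeded the fast skeletal Tnnc2, at 2.32 and 2.82. Tnnc2 on both arrays and Tnnt3 on replicate 2 were below the other-organ level, so that no size of gap is given for them. Mybpc3, cardiac myosin-binding protein C, led its skeletal relatives at 11.40 and 11.71, against 5.38 and 4.65 for Mybpc2. Among the alpha-actinins Actn2, the form of cardiac Z discs, gave 12.22 and 11.63, against 7.44 and 6.81 for the non-muscle Actn4.

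The myosin heavy chains were different, since 2 cardiac forms were about equally bright. Myh7 gave 13.04 and 12.88, and Myh6, the fast alpha form, gave 12.73 on both arrays. The gap was 0.31 and 0.15, which is small beside the 2.49 and 3.73 log2 units between the 2 probe sets of Myh7. The second probe set of Myh7 gave 10.55 and 9.15, and that of Myh6 10.39 and 9.27. By both probe sets, then, signals of the cardiac forms were close to each other, and their order in transcript number cannot be read from them.

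**Figure D3:**
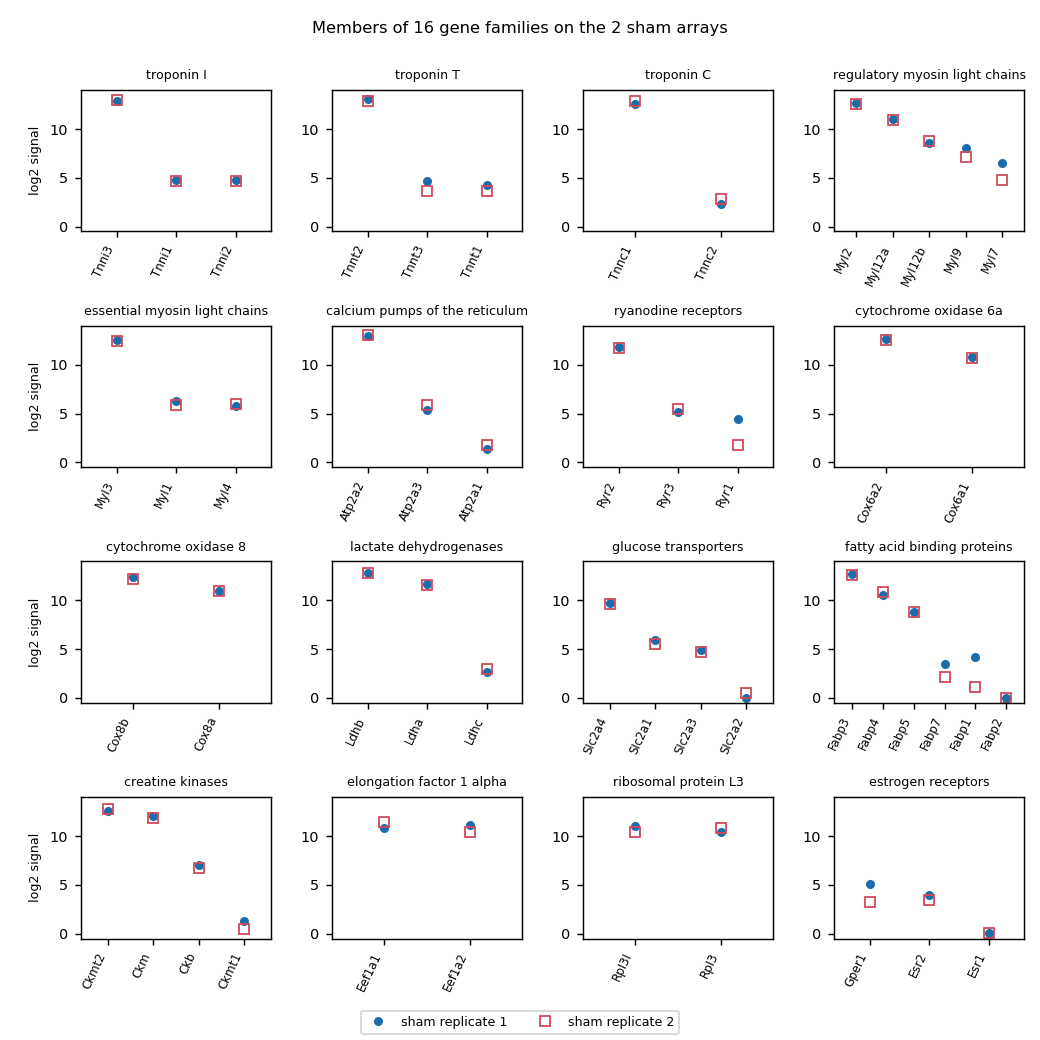
Log2 signal of each measured member of 16 gene families on both sham arrays, filled circles for replicate 1 and open squares for replicate 2, on the same axis from 0 to 14. Tnni3 lies near 13 and its skeletal relatives below 5, whereas Eef1a1 and Eef1a2, by the probe sets used for ranking, exchange places between the arrays.

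Calcium handling used mainly the cardiac genes. Atp2a2 stood above Atp2a3, a pump of non-muscle cells, at 5.37 and 5.90, and above the fast skeletal Atp2a1, at 1.35 and 1.81. Ryr2 stood above Ryr3, at 5.17 and 5.43, and above the skeletal Ryr1, at 4.42 and 1.81. Casq2 exceeded the skeletal Casq1, at 7.97 and 7.06. Slc8a1, the sodium-calcium exchanger of heart, gave 9.76 and 9.60, against 3.66 and 4.62 for Slc8a2. Camk2d, the delta form of the calcium-dependent kinase, gave 10.23 and 9.97, against 6.85 and 6.71 for Camk2g. Among the calcium channels Cacna1c, the pore of the L-type channel, gave 8.15 and 7.97.

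Channels and receptors of the membrane were dimmer and less clear. Scn7a, an atypical sodium channel, was the brightest of 7 sodium channel genes at 8.69 and 8.80. Kcnj11, the pore of the ATP-sensitive potassium channel, led the inward rectifiers at 9.07 and 8.97, and Kcnj2, which carries the resting potassium current, gave 3.80 and 3.01. Kcnq1, of the slow delayed rectifier, led the voltage-gated potassium channels on replicate 1 at 7.13, and Kcnd3, of the transient outward current, led on replicate 2 at 6.18. Adra1b led the alpha1 receptors at 7.47 and 7.98, while Adrb1, the main beta receptor of heart muscle, gave 3.88 and 3.36.

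Metabolic isoforms showed both patterns. Cox6a2 and Cox8b, the forms of oxidase subunits in heart and skeletal muscle, gave 12.68 and 12.52, and 12.40 and 12.24. Their widely made relatives were also bright, Cox6a1 at 10.78 and 10.70 and Cox8a at 10.99 and 11.00. Cox4i1 at 12.36 and 12.39 left Cox4i2, known from lung, at 5.36 and 5.33. Slc25a4 exceeded Slc25a5, the carrier of proliferating cells, at 10.61 and 10.64, by 2.22 and 2.05.

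For fuels, Slc2a4, the insulin-regulated glucose transporter, gave 9.73 and 9.63, against 5.90 and 5.50 for the widely made Slc2a1. Hk1 at 8.61 and 8.84 exceeded Hk2, the insulin-regulated hexokinase, at 4.17 and 4.66. Cpt1b, the muscle gate of fatty acid entry into mitochondria, gave 10.98 and 10.56, and the liver form Cpt1a still gave 8.33 and 8.08. Acsl1 led the fatty acid activating enzymes at 11.05 and 11.13. Ldhb exceeded Ldha, the chain typical of fast muscle, at 11.65 and 11.63, by 1.15 and 1.17. Ckm, the cytosolic muscle creatine kinase, gave 12.06 and 11.86, while the brain form Ckb gave 7.03 and 6.78.

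Regulators of metabolism had no member more than 2-fold above the next on both arrays in the estrogen-related receptors and the pyruvate dehydrogenase kinases, and did have one in the AMPK subunits, the PPARs and the PGC-1 coactivators. For the last 2 families the choice depended on the probe set rule. By the mean over probe sets the highest PPAR was Pparg in place of Ppard, and the highest coactivator was Ppargc1b in place of Ppargc1a. Esrrg and Esrra, receptors that act with PGC-1 alpha, gave 8.38 and 8.35, and 8.01 and 8.48. Among the kinases that inhibit pyruvate dehydrogenase, Pdk4 led on replicate 1 at 10.52 and Pdk2 on replicate 2 at 10.20, with Pdk1 at 9.39 and 9.45. Prkaa2, the catalytic AMPK subunit of muscle, led Prkaa1 at 9.71 and 9.36 against 6.98 and 7.66.

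In 2 translation families a muscle form stood beside the general one. Eef1a2, which replaces Eef1a1 in adult muscle and neurons, gave 11.12 and 10.48, and Eef1a1 gave 10.87 and 11.47. Rpl3l, the muscle paralog of a large-subunit protein, gave 11.02 and 10.45, and Rpl3 gave 10.46 and 10.84. In both families, by the probe sets used for ranking, the muscle form was higher on replicate 1 and the general form on replicate 2. The other probe set of Eef1a2 gave 4.64 and 1.90, that of Eef1a1 10.62 and 11.59, and that of Rpl3 7.44 and 5.75. By these, Eef1a1 lay above Eef1a2 and Rpl3l above Rpl3 on both arrays, so the exchange of places depended on the probe set. The other 6 families whose highest member changed between the arrays were the voltage-gated potassium channels, the pyruvate dehydrogenase kinases, the oxidase 7a subunits, the estrogen-related receptors, the phosphodiesterases 3 and 4, and the estrogen receptors.

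Structural families of the stroma differed in how clearly one gene led. Col3a1 exceeded the chains of type I collagen, Col1a2 at 8.19 and 7.55 and Col1a1 at 7.30 and 6.88. Col4a1, a chain of basement membrane collagen, gave 8.64 and 8.38, less than 2-fold above Col4a2 at 7.83 and 7.68. Timp3 was likewise close to Timp2, at 9.51 and 9.22. Lama2, the laminin chain of muscle basement membrane, gave 9.30 and 9.39, more than 2-fold above Lama4 at 7.70 and 7.76. Igfbp7, a binding protein made by vessels, led its family at 10.46 and 9.99, and Igfbp1, known from liver, gave 0.10 and 0.04. Vegfb gave 9.06 and 8.64, next to Vegfa. Tgfb3 led the TGF-beta ligands at 6.65 and 6.85.

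When a gene was represented by the mean over its probe sets, 12 families changed their highest member. Myl12a, a non-muscle light chain, then stood above Myl2, Pygb above the muscle glycogen phosphorylase Pygm, and Cav3, the muscle caveolin, above Cav1. The choices for the troponins, the calcium pumps, the release channels, the oxidase subunits and the glucose transporters were the same either way.

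Promoters of the brightest genes were examined for a feature that the ranking had not used. In genes with a TATA box, the letters TATAAA near the start site position the transcription machinery. RefSeq promoters (assembly GRCr8) were available for 11700 of the 14217 genes, and the sense strand of the 50 bases before the first listed start was searched for TATAAA. It was present in 309 of them (2.64%), against 676 of all 27457 promoters in the table (2.46%). On the opposite strand the same letters were present in 75 of the 11700 (0.641%).

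The 100 highest genes were like the rest by this measure. Of their 80 promoters 2 held TATAAA (2.50%), those of Cox8b and Myh1. Among contractile genes it was 1 of 51 (1.96%), Acta1, and among mitochondrial genes 1 of 185 (0.541%), Cox8b. Among the markers of other organs it was 17 of 60 (28.3%). The median GC content of the promoter sequences was 56.8% for the 100 highest genes, 60.0% for all genes and 51.3% for the other-organ markers. These shares are descriptions, and the start sites are those of the annotation, not sites measured in these hearts.

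**Figure D4:**
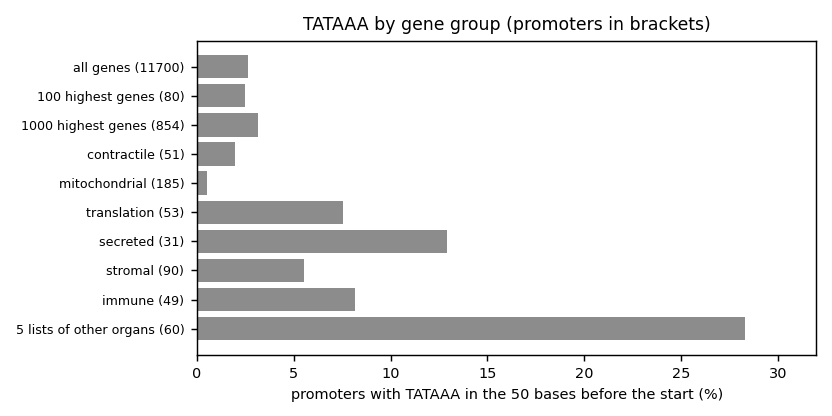
Share of promoters that hold TATAAA on the sense strand in the 50 bases before the annotated start, in percent, by gene group, with the number of promoters in brackets. The 100 highest genes (2.50%) lie close to all genes (2.64%), and the markers of other organs reach 28.3%.

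The bases from 80 before to 20 after the start are printed here for 3 heart genes with TATAAA and 3 without it, each 5' to 3' on the gene's own strand, with TATAAA in capitals. Cox8b and Cox8a are the muscle and general form of the same oxidase subunit, and only the first of them holds the letters in this window. They begin 39 bases before the start in Cox8b and Nppa, and 29 bases before it in Acta1. The regions in GRCr8 are chr1:205408254-205408353 on the minus strand (Cox8b), chr1:213833604-213833703 on the minus strand (Cox8a), chr19:68784175-68784274 on the minus strand (Acta1), chr5:163712104-163712203 on the plus strand (Nppa), chr15:32411678-32411777 on the minus strand (Myh6) and chr1:78342491-78342590 on the plus strand (Tnni3).
Cox8b: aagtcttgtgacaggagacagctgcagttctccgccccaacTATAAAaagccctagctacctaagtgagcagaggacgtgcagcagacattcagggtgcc
Cox8a: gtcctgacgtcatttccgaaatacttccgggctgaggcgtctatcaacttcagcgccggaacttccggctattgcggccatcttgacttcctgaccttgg
Acta1: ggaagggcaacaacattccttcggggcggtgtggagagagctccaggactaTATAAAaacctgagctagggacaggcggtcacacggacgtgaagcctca
Nppa: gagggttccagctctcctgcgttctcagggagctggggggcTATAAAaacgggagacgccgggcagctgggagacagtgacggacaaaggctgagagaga
Myh6: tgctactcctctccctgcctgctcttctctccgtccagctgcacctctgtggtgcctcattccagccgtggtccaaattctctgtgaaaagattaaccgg
Tnni3: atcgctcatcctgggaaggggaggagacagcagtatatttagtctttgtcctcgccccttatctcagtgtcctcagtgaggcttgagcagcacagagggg

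Agreement of the arrays was close for bright genes and poor for dim ones. Across all 14217 genes Pearson's r was 0.904 and Spearman's rho 0.936, which describe genes and not independent replicates. The SD of the differences between the arrays was 1.09 log2 units and the median size of a difference 0.405. In all, 3144 genes (22.1%) were more than 2-fold apart, 1526 (10.7%) higher on replicate 2 and 1618 (11.4%) lower. Of the 100 highest genes on each array, 91 were shared.

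The disagreement was concentrated at low signal. Genes were divided by mean signal into 10 bins of like size. In the lowest bin 55.1% of genes were more than 2-fold apart, and in the next 71.2%. The share was 14.2% in the fifth bin, just below the median gene, and 0.422% in the highest. Among the 100 highest genes none was, and the median size of their differences was 0.129. A log scale stretches small differences between dim signals, and values near its floor of 1 linear unit carry no order.

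**Figure D5:**
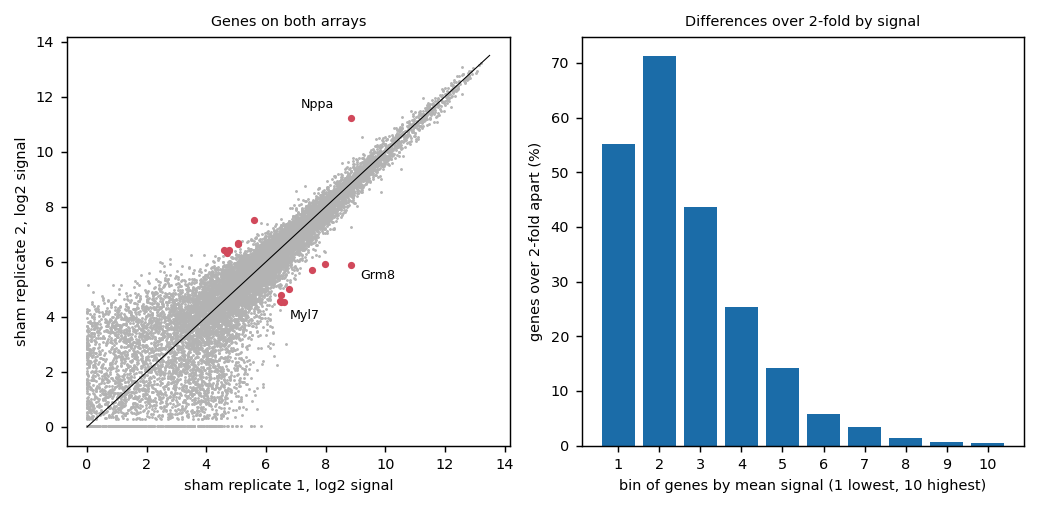
Left, log2 signal of each gene on sham replicate 1 against replicate 2, with the line of equal values and, in red, the 16 genes of largest difference among those at or above the median signal. Right, share of genes more than 2-fold apart in each of 10 bins of genes by mean signal, 55.1% in the lowest and 0.422% in the highest.

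Set against the 22.1% of all genes, the classes of high signal had small shares. Bright genes of any kind did too, with 0.422% in the highest bin, so these shares are not separated from signal level. Of 68 contractile genes 3 were more than 2-fold apart, Myl7, Mybphl and Fkbp1b, and of 218 mitochondrial genes 2 were, Ndufb8 at 8.54 and 9.58 and the testis form Cox7b2 at 0.01 and 4.18. Among stromal genes the count was 13 of 130. Among immune genes it was 15 of 67, a share near that of all genes, and among the markers of skeletal muscle and other tissues 41 of 100. Ndufb8 and Cox7b2 are named because they make up this count and were chosen after their values were seen.

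Some genes at or above the median signal stood apart. Nppa, at 8.85 and 11.23, had the largest excess on replicate 2 among them. Card9, a signalling adaptor of myeloid cells, gave 5.60 and 7.51. Kcnj8, a potassium channel subunit of pericytes and smooth muscle, gave 4.60 and 6.42. Isg15, a ubiquitin-like protein induced by interferon, gave 4.70 and 6.39, and Cd53, a tetraspanin of leukocytes, gave 5.06 and 6.66. The remaining 3 of the 8 highest on replicate 2 were Rbbp5, Smchd1 and Nabp1, by 1.60 to 1.65.

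In the other direction Grm8, a glutamate receptor, gave 8.86 and 5.87, a replicate 2 minus replicate 1 difference of -2.98. Ppp1r16a gave 6.61 and 4.55 and Tmem184b 7.99 and 5.93. Palld, which encodes the actin-bundling palladin, gave 7.53 and 5.71, and Zc3h12a, an RNase that limits inflammation, gave 6.49 and 4.54. Myl7, at 6.49 and 4.81, was also among the 8, with Nfix and Srcap. Nppa and Myl7, both on the atrial list, thus differed in opposite directions between the 2 pools, and Myl4, at 5.74 and 5.99, differed by 0.25.

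Part of this difference went with the replicate number across the study. By the mean signal with the top and bottom 2% of probe sets left out, the deposited sham arrays were at 69.8 and 105.4 linear units, and in each of the other 3 groups replicate 1 was the dimmer array too. By median signal the sham pair went the other way, at 26.5 and 25.9, while the other 3 pairs did not. Of the 165 genes at or above the median signal that were more than 2-fold apart on the sham arrays, 80 (48.5%) differed in the same direction in all 3 other pairs, against 3905 of all 14217 genes (27.5%). Among all genes more than 2-fold apart, dim ones included, it was 1107 of 3144 (35.2%). The share among all genes at or above the median signal was not taken, so the 27.5% is not a matched background for the 165. Kcnj8 and Card9 were higher on replicate 2 and Grm8 lower in every pair. Nppa was not: its replicate 2 minus replicate 1 difference was 1.43, 0.19 and -0.96 in the others. Which step of sampling or processing the number stands for is not given, and its part in these differences was not tested.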

How the data were processed

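Linear intensity values, 1 per probe set and array, were deposited by the authors. The submitters' processing notes name MAS5, which summarises probe pairs into a signal, without its version, scaling or detection calls. Values below 1 were set to 1 (379 on sham replicate 1, 1128 on replicate 2), log2 was taken, and the 8 arrays were quantile-normalized after leaving out 57 control probe sets of 31099. The platform annotation gave 1 symbol for 20826 probe sets, several for 436 and none for 9780, and 20758 of the first matched RefSeq GRCr8 by Entrez number. A gene was represented by the probe set of highest mean over the 8 arrays. Genes were ranked by the mean of the 2 sham arrays. Percentiles, list counts and family gaps are descriptions, since there was 1 group of 2 pools, and no test was run. The number of arrays limits the precision.

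Named genes were the 40 highest, the 5 highest and the lowest of each list, members of the families described, the 8 of largest array difference in each direction at or above the median signal, and Ppargc1a, Pgr, the estrogen receptors, Myh6 and Myh7, Nppa and Nppb, and Atp2a2. The members and lists were chosen with earlier results of these data known. Alternatives changed the normalization, the offset before the log, the probe set rule, a filter on dim probe sets and the arrays used. The ranking code was run on simulated arrays whose noise was far smaller than the SD of 1.09 log2 units of the differences between the sham arrays. That run cannot show how well the genes of these hearts were ranked. Python 3.11.15, numpy 2.4.6, pandas 2.3.3 and matplotlib 3.10.9 were used.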

Additional observations from a re-analysis of the deposited data

Results flagged for a closer look

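Among the 100 probe sets of highest signal on the sham arrays, 27 had no single gene symbol and so entered no ranking of genes: 7 had no symbol and 20 had several. Of all probe sets kept, 32.9% were without a single symbol. The brightest probe set of all was among them, at 13.32 on both arrays, above COX1 at 13.22. A signal in data outside the gene ranking flagged this result.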

How the results depend on the processing

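The number of genes more than 2-fold apart between the sham arrays, 3144, was 130 with 32 added before log2 and 1023 with only probe sets at or above the 40th percentile, both of which remove or compress dim values. It was 4323 without normalization between arrays and 4479 with arrays centred on their medians. With the mean over the probe sets of a gene, 11 in place of 20 contractile genes were among the 100 highest, and the median percentile was 94.1 for contractile, 97.5 for mitochondrial, 81.4 for secreted and 67.6 for stromal genes, so that the mitochondrial median passed the contractile one, and 12 families changed their highest member. With the 40th percentile filter it was 97.6, 96.8 and 68.9 for contractile, mitochondrial and stromal genes. Ranked on a single array, the contractile median percentile was 97.65 to 97.68, the mitochondrial 97.46 to 97.50 and the secreted 86.4 to 87.2. The immune median percentile, 35.2 in the main ranking, moved more, to 30.3 on replicate 1 alone and 37.3 on replicate 2 alone. It was 39.6 with the mean over probe sets and 31.4 with the 40th percentile filter. The counts of 91 shared genes and of 67 families with the same highest member on both arrays stayed within 1.5 times under each alternative run. Of 250 named genes, 130 moved by more than their array spread with 32 added, 126 without normalization and 71 with the mean over probe sets. No paired analysis was possible because a single group was described and no groups were compared. MAS5 signals without detection calls limit every statement on genes near or below the other-organ level.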

Other observations

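Beyond the lists, 5 nuclear genes outside any list were among the 100 highest, named here after their values were seen. Smpx, a small muscle protein of the costamere, gave 12.41 and 12.28. Chchd10, a protein of mitochondrial cristae, gave 12.27 and 12.32. Ndrg2, a stress-responsive protein, gave 12.15 and 11.85, and Crip2, a LIM protein known from heart and vessels, gave 12.07 and 11.79. Tmsb4x, thymosin beta 4, which holds actin monomers, gave 11.89 and 11.99.

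Of the next 15 genes in no list or family after rank 100, 8 are given here, chosen after their values were seen. Nnt, the transhydrogenase that makes mitochondrial NADPH, stood at rank 107 with 11.76 and 11.64. Ndufab1, the mitochondrial acyl carrier protein, gave 11.82 and 11.55, and Ech1, an enzyme for unsaturated fatty acids, gave 11.87 and 11.48. Oxct1, which lets the heart burn ketone bodies, gave 11.57 and 11.40, and Cisd1, an iron-sulfur protein of the outer membrane, gave 11.33 and 11.58. Of other kinds were Myzap, a protein of the intercalated disc, at 11.60 and 11.53, Gnas, the stimulatory G protein subunit, at 11.75 and 11.31, and Prkar1a, a regulatory subunit of protein kinase A, at 11.51 and 11.37. The largest difference between the arrays among these 8 genes was that of Gnas, at -0.43 for replicate 2 minus replicate 1.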
